A study of Mus musculus with 29 samples.

Results

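Control liver was compared with control hindlimb muscle in 7 of the 29 RNA-seq libraries of a mouse diet study, 3 from livers (mice 1095, 1120 and 1121) and 4 from muscles (mice 1071, 1095, 1120 and 1121), chosen by their tissue and diet labels and not by any measured value. The animals were male C57BL/6 mice that were purchased when 14 weeks old and began the diets at 4 months. Control mice ate 95% of what they would take freely, or 13.6 kcal per day, while the other 22 libraries came from mice held at 60%, 8.6 kcal per day, with soy, fish or lard as the label of the diet, and serve here only for a repeat of the same contrast. The muscle samples were the entire muscle of the hindlimb, so that each library mixes muscles of different fibre makeup, and each library is 1 animal. The liver of mouse 1071 was discarded by the study's authors after clustering and because of its RNA integrity and was not analysed here.

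The liver exports most plasma proteins and lipoproteins, breaks down amino acids to urea, keeps blood glucose and ketones supplied during a fast, and clears drugs and bile acids. Skeletal muscle is built of sarcomeres, in which myosin pulls on actin when calcium is released through the ryanodine receptor, and it buffers ATP with creatine phosphate and burns glycogen and fatty acids for its own use. Many enzymes that both organs need are encoded by a pair of genes, one used by the hepatocyte and one by the myofibre. In RNA from a whole organ, fewer cells of a type and less RNA per cell cannot be told apart.

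The libraries held between 14110643 and 15600900 reads in exons, and values are given as counts scaled to the exon reads of a library (CPM), in order of mouse number. Liver and muscle were the first axis of variation, which carried 92.73% of the variance of the log2 CPM values. Both tissues were checked against their markers. The 10 hepatocyte markers summed to between 102900 and 117300 CPM in livers and between 216 and 539 CPM in muscles, and the 10 myofibre markers to between 198 and 266 CPM in livers and between 142300 and 267200 CPM in muscles.

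The muscles differed more among themselves than the livers. Rank correlations of log2 CPM ran from 0.986 to 0.993 between livers and from 0.951 to 0.987 between muscles. The muscles of mice 1071 and 1120 carried more of the markers of blood formation and bone than the other muscles. The 9 erythroid markers in the tables summed to between 496 and 708 CPM in livers, and to 1991, 557, 7685 and 219 CPM in muscles 1071, 1095, 1120 and 1121. None of the 5 that could be tested was called with all libraries (median log2 fold change -2.22). Of these, 4 were called higher in muscle without muscle 1095, without muscle 1121, with upper quartile scaling or in a fit of all 29 libraries, while without muscles 1071 and 1120 1 was called higher in liver, none in muscle and the median was 0.40. The 11 markers of neutrophils and their precursors summed to between 1.09 and 1.72 CPM in livers, and to 286, 1.07, 1205 and 0.970 CPM in the 4 muscles. The 1 that could be tested was called higher in muscle with all libraries, at a log2 fold change of -7.10, and higher in liver without muscles 1071 and 1120, at 3.40. It was not called without liver 1095, liver 1120 or liver 1121, nor with the animal as a block (-5.00) or with limma-voom (-2.49). The block fit takes nothing from muscle 1071, whose mouse has no liver library here. The 7 bone and cartilage markers summed to at most 0.0686 CPM in livers, with 6 of the 7 at 0 reads in all of them, and to 21.2, 0.604, 86.1 and 0.624 CPM in the 4 muscles.

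The library labelled as hindlimb muscle of mouse 1120 also lacked part of the Hox code of the hindlimb. Hoxc10, a patterning gene of the posterior limb, had 64.7, 68.7, 0.778 and 68.8 CPM in the 4 muscles, and at least 53.7 CPM in each of the 10 muscles from the other diets. Hoxc11 had 8.98, 5.70, 0 and 7.28 CPM, and the same library was lowest for Hoxc9 and Hoxd10. Of 18 Hox genes tested, these 4 were lower there than in every muscle of the other diets and by over 4-fold than in any other control muscle. Hoxa10 and Hoxc4 were also below every muscle of the other diets, by less, at 8.70 and 3.96 CPM beside at least 11.4 and 4.53 CPM. Hoxa5, Hoxb4 and Hoxc5 went the other way, at 1.91, 1.98 and 6.01 CPM beside at most 0.556, 1.02 and 3.06 CPM. For these genes at least 1 other control muscle was above the other diets too. Tbx4, another hindlimb gene, was no lower in muscle 1120, at 2.28, 2.35, 2.69 and 2.08 CPM in the 4 muscles. Hoxa11 and Hoxa13, not among the 18, were not low there either, at 4.95 and 3.89 CPM. Tbx5 was read little in all 4 muscles, at 6, 1, 10 and 3 reads. In muscles 1071 and 1120 that was 0.390 and 0.707 CPM, beside at most 0.307 CPM in the muscles of the other diets. The label is kept, and counts that moved by over 1.5 times without muscles 1071 and 1120 are given both ways; what these markers and Hox genes contribute to the results was not tested.

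Muscle 1071 stood apart in fibre and mitochondrial genes as well. Myh7, the myosin heavy chain of slow fibres, had between 0.577 and 1.56 CPM in livers, and 28.0, 1630, 99.9 and 611 CPM in the 4 muscles. Tnni1, the slow troponin I, had 8.91, 301, 32.8 and 113 CPM in muscles. The 13 mitochondrially encoded subunits took 7.83 to 9.06% of the reads of livers, 6.34% of the reads of muscle 1071 and 17.2 to 22.3% in the other muscles. The sarcomere list as a whole was highest in the same library, at 283100 CPM, while the other muscles had 183200 to 198000 CPM.

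**Figure D1:**
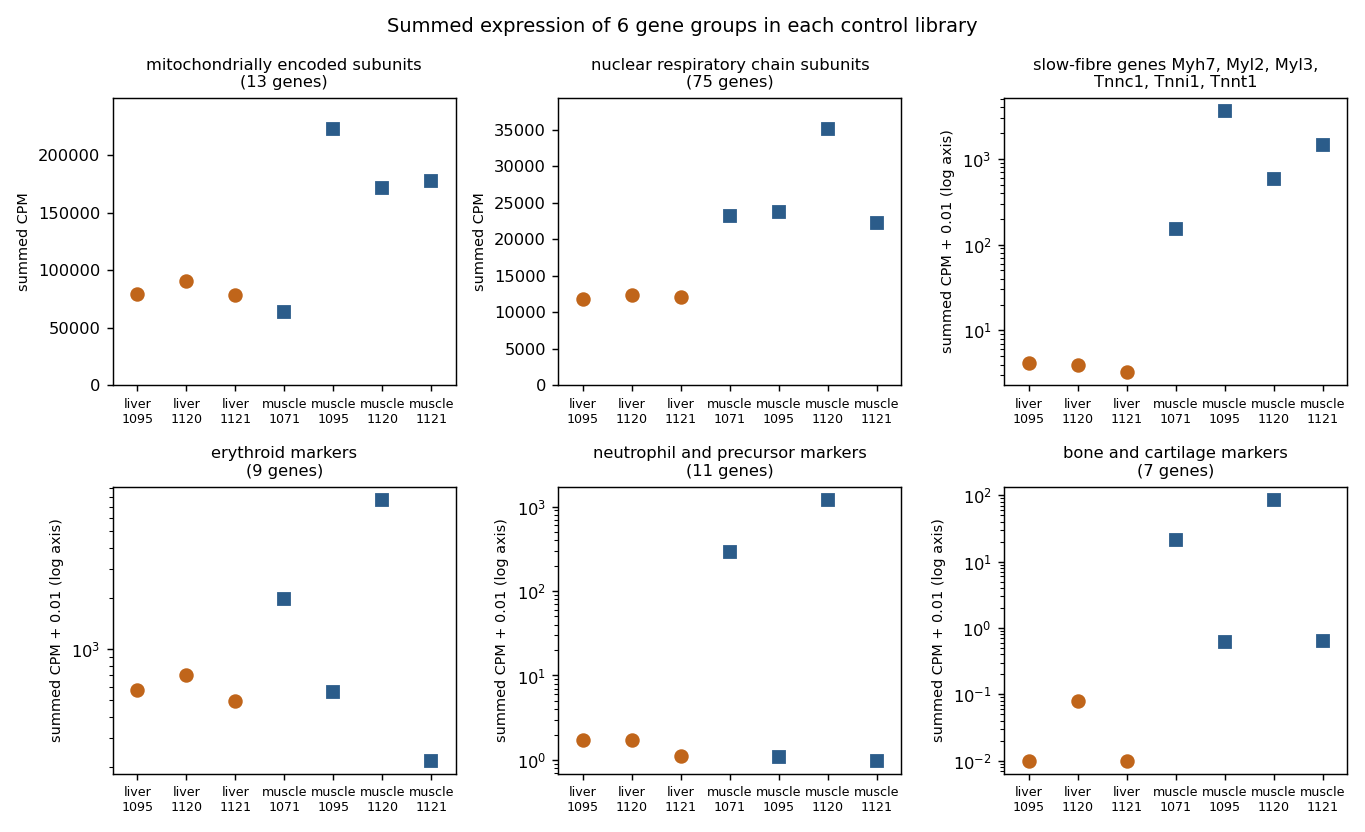
Summed CPM of 6 gene groups in each of the 7 control libraries, with livers as circles on the left and muscles as squares on the right, on linear axes for the 2 respiratory chain groups and on log axes (CPM + 0.01) for the others. Of the 4 muscles, 1071 and 1120 have the highest sums of erythroid, neutrophil and bone markers and the lowest slow-fibre sums. Muscle 1071 lies below all livers for the mitochondrially encoded subunits.

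Of 13376 genes tested, 9163 differed between the tissues (68.5%) at an adjusted p under 0.05 in edgeR's quasi-likelihood test, 4473 higher in liver (33.4%) and 4690 higher in muscle (35.1%). The median of the absolute log2 fold change over all tested genes was 1.10, and 6978 genes were called at 2-fold or more (52.2%). Among the calls, 1379 were at least 8-fold higher in liver and 1389 in muscle, and 346 were at least 256-fold higher in liver and 326 in muscle. In 9149 genes (68.4%) the livers and muscles did not overlap in CPM. The 95% interval of the fold change lay within 2-fold for 3230 genes (24.1%). Without muscles 1071 and 1120, 8704 of the 9057 calls still tested were made again and 1 turned to the other direction. The numbers of replicates are 3 livers and 4 muscles throughout, and the p-values measure the spread between these animals.

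Reads were concentrated on fewer genes in muscle. In livers the 10 most counted genes took 17.0 to 19.3% of reads, and in muscles 23.3 to 31.5%. In each library 50% of the reads came from 146 to 193 genes in livers, against 49 to 74 genes in muscles. Alb, serum albumin, alone took 6.70 to 8.40% of liver reads. Per length of transcript, the most abundant nuclear messages were Alb, Apoa2, Fabp1 and Apoe in livers, and Tnnt3, Tnnc2, Acta1 and Ckm in muscles.

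A trace of each organ's most abundant messages was read in the other. Myofibre markers stood in livers at a median of 0.105 to 0.127% of their muscle level, and hepatocyte markers in muscles 1071, 1095, 1120 and 1121 at a median of 0.411, 0.335, 0.186 and 0.216% of their liver level. Abundant tissue genes are set beside that trace. They were taken at 32-fold or more, so smaller changes were left out by the choice. Markers such as Alb and Ckm, which set the trace level, are among them. The 75 genes of at least 1000 CPM and 32-fold in liver had a median log2 fold change of 8.42, with quartiles of 8.0 and 8.71. The 53 such genes of muscle had a median size of 9.21, with quartiles of 8.72 and 9.71. The median level left in the other organ was 0.2838% for the liver genes. For the muscle genes it was 0.1725%, above the range of the myofibre markers in livers. Whether the reads of such a gene in the other organ came from that trace or from expression there was not tested.

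**Figure D2:**
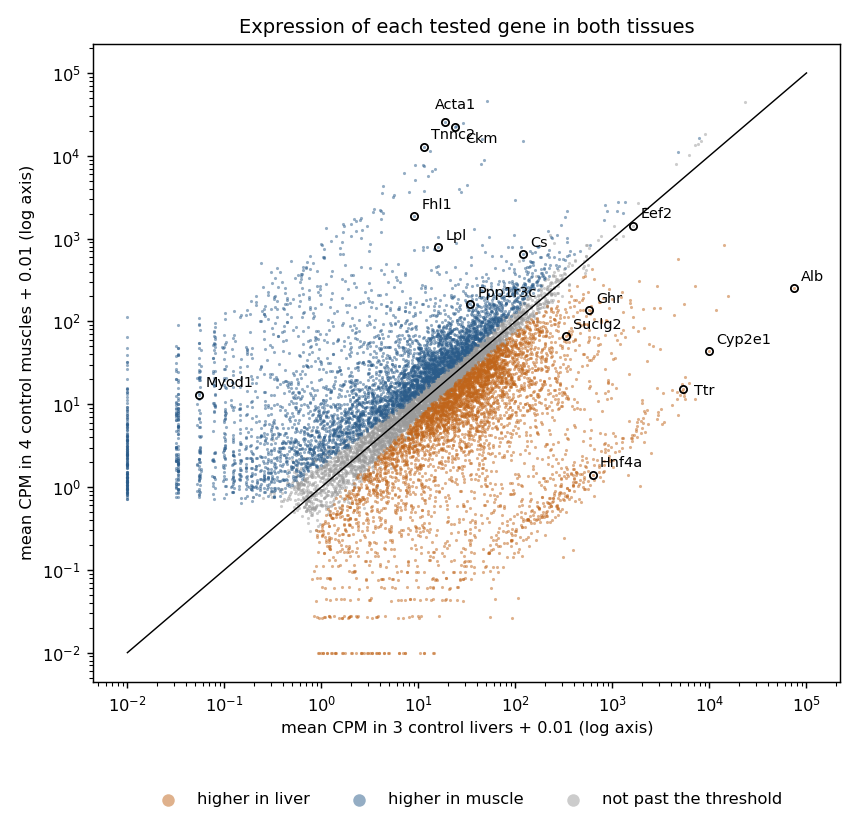
Mean CPM of each of the 13376 tested genes in control livers (horizontal) and control muscles (vertical), both on log axes after adding 0.01, with the line of equal values. Genes higher in liver lie below the line, and the abundant ones, such as Alb, Cyp2e1 and Hnf4a, gather in a band parallel to it, while abundant muscle genes such as Acta1, Ckm and Tnnc2 gather in a band above it.

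Promoters are shown for 1 abundant member of a structural or secretory list and 1 of a regulator list in each organ, each the 250 bases before the start of the gene in RefSeq's GRCm38.p6 annotation, 5′ to 3′ on the gene's own strand. Capitals mark each match, on either strand, to TTNNGCAA (a C/EBP-like motif), to the motif GTTAAT, to the motif CAGCTG (an E-box of the myogenic kind), CArG (the SRF motif), TATAAA and CCAAT. Alb, serum albumin, lies on chr5:90460620-90460869 (plus strand), and Tnnc2, fast troponin C, on chr2:164779735-164779984 (minus strand). Nr1h4, the bile acid receptor, lies on chr10:89506659-89506908 (minus strand), and Fhl1, a LIM-domain protein of muscle, on chrX:56779433-56779682 (plus strand).
Alb: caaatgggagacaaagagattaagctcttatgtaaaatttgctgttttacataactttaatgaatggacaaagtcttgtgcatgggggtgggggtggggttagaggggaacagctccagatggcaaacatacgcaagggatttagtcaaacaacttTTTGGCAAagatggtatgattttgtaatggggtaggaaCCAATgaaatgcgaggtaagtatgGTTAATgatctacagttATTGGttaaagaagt
Tnnc2: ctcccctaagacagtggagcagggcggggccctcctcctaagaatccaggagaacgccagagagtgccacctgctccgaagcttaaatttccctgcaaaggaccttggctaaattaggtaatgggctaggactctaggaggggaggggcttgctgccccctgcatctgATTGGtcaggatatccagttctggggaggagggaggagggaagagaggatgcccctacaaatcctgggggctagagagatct
Nr1h4: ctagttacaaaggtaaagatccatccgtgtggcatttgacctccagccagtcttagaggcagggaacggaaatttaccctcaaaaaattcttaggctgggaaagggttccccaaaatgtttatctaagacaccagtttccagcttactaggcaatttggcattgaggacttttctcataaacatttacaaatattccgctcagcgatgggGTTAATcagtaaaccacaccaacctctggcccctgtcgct
Fhl1: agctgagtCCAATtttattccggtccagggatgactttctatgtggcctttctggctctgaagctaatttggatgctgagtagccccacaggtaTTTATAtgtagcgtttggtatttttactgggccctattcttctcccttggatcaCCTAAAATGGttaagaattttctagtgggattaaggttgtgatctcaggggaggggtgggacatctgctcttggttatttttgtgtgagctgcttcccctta
The Alb promoter held TTNNGCAA 94 bases before the start and GTTAAT 32 bases before it, and the Nr1h4 promoter held GTTAAT 40 bases before the start. The Fhl1 promoter held the CArG motif 102 bases before the start, and the Tnnc2 promoter held none of the motifs except CCAAT, on the reverse strand. Nr1h4 and Fhl1 were the most counted regulators of their lists among those whose promoters held a motif linked to their organ. A match in these 2 promoters was therefore set by that choice. GTTAAT was in 2 of 18 promoters of the liver transcription factors, and the CArG motif in 2 of 16 promoters of the muscle regulators. The absence of a match says only that these letters are not in the window.

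The promoters of Acta1 and Ckm are printed as well because they show the motifs that were more frequent in the muscle lists, and were chosen after the motif counts were seen. Acta1, skeletal alpha-actin, lies on chr8:123894776-123895025 (minus strand), and Ckm, muscle creatine kinase, on chr7:19410844-19411093 (plus strand).
Acta1: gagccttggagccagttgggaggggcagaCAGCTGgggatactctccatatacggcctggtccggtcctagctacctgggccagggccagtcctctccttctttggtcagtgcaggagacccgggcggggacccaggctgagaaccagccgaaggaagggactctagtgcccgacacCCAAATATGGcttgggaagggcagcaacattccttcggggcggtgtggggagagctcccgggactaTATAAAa
Ckm: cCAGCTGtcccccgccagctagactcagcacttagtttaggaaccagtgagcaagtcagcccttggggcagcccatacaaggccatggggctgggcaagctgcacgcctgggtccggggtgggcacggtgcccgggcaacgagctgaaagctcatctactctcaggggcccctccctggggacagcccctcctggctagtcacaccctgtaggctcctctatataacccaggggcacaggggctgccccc
The Acta1 promoter held CAGCTG 221 bases before the start and the CArG motif 73 bases before it, and the Ckm promoter held CAGCTG 249 bases before the start. Over a window from 250 bases before to 50 bases after the start, GTTAAT was found in 21.1% of the 161 promoters of the liver program lists, 4.96% of the 121 promoters of the muscle program lists and 4.47% of the 10408 promoters of all tested genes. TTNNGCAA was found in 23.6% of the liver promoters, 9.92% of the muscle promoters and 8.71% of all. CAGCTG was found in 12.4% of the liver promoters, 34.7% of the muscle promoters and 15.2% of all, and the CArG motif in 1.86%, 9.09% and 1.33% of these 3 sets. The muscle lists differed among themselves. CAGCTG was in 14 of 31 sarcomere promoters and 0 of 16 promoters of the muscle transcription factors and regulators. The CArG motif was in 6 of 31 sarcomere promoters and in none of the calcium handling, neuromuscular junction and hindlimb lists. TATAAA was found in 24.8% of the liver promoters, 20.7% of the muscle promoters and 7.79% of all. Each match is a description of the sequence and not a site at which binding was measured.

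All 22 plasma carrier proteins tested of 24 listed were higher in liver, at a median log2 fold change of 8.16, and the list took 11.9% of liver reads and 0.0494% of muscle reads. Alb had 67000, 84000 and 71720 CPM in livers, and 388, 269, 154 and 188 CPM in muscles (log2 fold change 8.19 ± 0.55, SE). Ttr, which carries thyroid hormone and retinol-binding protein, had 5978, 5354 and 4735 CPM in livers and between 9.76 and 22.3 CPM in muscles. No liver overlapped any muscle in either gene. Members named below for the smallest difference of a list, or for their role, were chosen after their values were seen. The smallest difference of the list was in Hp, haptoglobin, at 1553, 2416 and 2387 CPM in livers and 162, 22.0, 42.1 and 104 CPM in muscles (log2 fold change 4.67 ± 0.64).

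All 23 coagulation and fibrinolysis genes in the tables were higher in liver, with a median log2 fold change of 8.50. Fga, Fgb and Fgg, the chains of fibrinogen, had 2506 to 3565, 2663 to 3280 and 1923 to 2497 CPM in livers, and at most 9.63, 11.6 and 10.4 CPM in muscles. F2, prothrombin, had 1536, 1581 and 1625 CPM in livers and between 2.26 and 5.79 CPM in muscles. Pros1, protein S, which holds clotting in check, was the member with the smallest difference, at 56.1, 57.8 and 72.4 CPM in livers and 10.1, 14.5, 14.7 and 18.2 CPM in muscles (log2 fold change 2.12 ± 0.20). Serpind1, heparin cofactor, gave the list's largest value at 11.10 ± 0.55, but only 21.9% of its exon reads mapped to a single place, so its level is uncertain.

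All 20 complement genes in the tables were higher in liver, with a median log2 fold change of 6.87. C8a, a chain of the membrane attack complex, had 499, 540 and 375 CPM in livers and at most 1.43 CPM in muscles (log2 fold change 9.45 ± 0.49). C3, the central component, was read in both organs, at 5700, 5049 and 5637 CPM in livers and 161, 145, 136 and 209 CPM in muscles, which is 5.06 ± 0.28 on the log2 scale. Cfp, properdin, which myeloid cells make, differed least, at 23.6, 31.0 and 24.7 CPM in livers and 12.8, 11, 14.9 and 11.2 CPM in muscles.

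Of 20 genes of apolipoproteins and lipoprotein handling, 19 were higher in liver and 1, Lpl, was higher in muscle. Apob, the scaffold of the very low density lipoprotein, had 6359, 7908 and 6800 CPM in livers and between 8.66 and 18.7 CPM in muscles (log2 fold change 9.22 ± 0.46). Mttp, which loads lipid onto it, had 334, 344 and 355 CPM in livers and 3.40 to 4.49 CPM in muscles. Lpl, lipoprotein lipase, which releases fatty acids from lipoproteins at the capillary wall, had 18.3, 11.7 and 17.9 CPM in livers and 563, 823, 1019 and 758 CPM in muscles (log2 fold change -5.64 ± 0.30, adjusted p 1.05e-07 in edgeR's test). Fat-cell markers, which express the same lipase, were read in muscles too, with Adipoq at 41.4, 35.4, 27.2 and 89.3 CPM, and their part in the Lpl level was not tested.

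All 30 genes of the urea cycle and of amino acid breakdown were higher in liver, with log2 fold changes from 4.02 upward and a median of 8.34. Cps1, the entry enzyme of the urea cycle, had 3459, 2633 and 2735 CPM in livers, and 10.9, 9.05, 5.52 and 7.07 CPM in muscles. Bhmt, which remethylates homocysteine, varied within liver, at 962, 3175 and 2204 CPM, with mouse 1095 lowest. Slc25a15, the ornithine carrier of the mitochondrion, differed least of the list, at 282, 176 and 218 CPM in livers and between 12 and 16.3 CPM in muscles.

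Of 18 genes of gluconeogenesis, fructose use and hepatic glucose handling, 16 were higher in liver, 1 was higher in muscle and 1 was not called, with a median log2 fold change of 6.24. G6pc, the last enzyme of glucose release, had 307, 377 and 332 CPM in livers and between 0.424 and 1.43 CPM in muscles (log2 fold change 8.41 ± 0.37). Pck1, which starts gluconeogenesis from oxaloacetate, had 2975, 2325 and 3989 CPM in livers and 54.0, 37.5, 21.4 and 71.7 CPM in muscles. Slc37a4, the carrier that brings glucose 6-phosphate to G6pc, differed much less, at 172, 230 and 206 CPM in livers and 122, 83.2, 72.6 and 102 CPM in muscles (log2 fold change 1.09 ± 0.24). The member higher in muscle was Ppp1r3c, a subunit that steers phosphatase to glycogen, with 40.5, 41.2 and 21.2 CPM in livers and 145, 118, 110 and 280 CPM in muscles (log2 fold change -2.26 ± 0.38).

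All 34 cytochrome P450 and conjugation genes were higher in liver, with a median log2 fold change of 8.23. Cyp2e1, which oxidises ethanol and acetone, had 8541, 10690 and 10200 CPM in livers and between 36.6 and 58.0 CPM in muscles. Por, the reductase that feeds electrons to these enzymes, differed less, at 339, 558 and 810 CPM in livers and between 21.6 and 40.5 CPM in muscles (log2 fold change 4.07 ± 0.35). The glutathione transferases Gstm1 and Gstp1 differed least, by 2.66 ± 0.26 and 1.40 ± 0.34 on the log2 scale, and under 50% of the Gstp1 reads mapped to a single place, so its level is uncertain.

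All 22 genes of bile acid synthesis and transport were higher in liver, with a median log2 fold change of 8.32. Slc10a1, which takes bile acids up from blood, had 812, 1043 and 910 CPM in livers and between 1.13 and 3.71 CPM in muscles. Cyp7a1, the rate-limiting enzyme of bile acid synthesis, had 49.2, 229 and 249 CPM in livers and at most 0.762 CPM in muscles, and Cyp8b1, which makes cholic acid, had 92.8, 426 and 508 CPM in livers. Mouse 1095 was the low liver in both. Abcb4, the phospholipid exporter of the bile canaliculus, differed least, at 356, 269 and 340 CPM in livers and 159, 148, 127 and 133 CPM in muscles (log2 fold change 1.16 ± 0.19).

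The 24 liver transcription factors listed were all higher in liver, 23 of them by 2-fold or more. Hnf4a, a nuclear receptor that hepatocytes depend on, had 626, 570 and 681 CPM in livers and between 0.919 and 2.15 CPM in muscles (log2 fold change 8.77 ± 0.34). Foxa1 and Foxa2, further factors of hepatocyte identity, were each read at no more than 0.142 CPM in any muscle. Ppara, the fatty acid receptor that drives fat oxidation, had 190, 250 and 276 CPM in livers and 2.15, 9.19, 4.24 and 12.5 CPM in muscles. Prox1 had 80.0, 164 and 151 CPM in livers and 0.846, 8.32, 1.27 and 4.09 CPM in muscles, and muscles 1095 and 1121, the richest in slow-fibre genes, were the high ones. Cebpb, an inflammation-responsive factor, differed least at 0.97 ± 0.24.

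All 43 sarcomere genes were higher in muscle, at a median log2 fold change of -9.11, and they took 0.0421% of liver reads and 21.3% of muscle reads. Myh4, the fastest myosin heavy chain, had 55.6, 50.6 and 47.6 CPM in livers and 75020, 37220, 20180 and 49130 CPM in muscles (log2 fold change -9.82 ± 0.72). Acta1 had 22.8, 20.3 and 13.8 CPM in livers and 34810, 20210, 27680 and 20600 CPM in muscles, with 40.9% of its reads mapping to a single place, so its level is uncertain. Tnnc2, the calcium sensor of the fast thin filament, had 11.4, 11.7 and 10.8 CPM in livers and 22010, 7704, 13210 and 8724 CPM in muscles. Slow-fibre members had standard errors up to 1.59, since the muscles themselves differed, as given above for Myh7 and Tnni1. Tpm3, whose gene also makes cytoskeletal tropomyosin, differed least, at 85.5, 64.4 and 75.5 CPM in livers and 57.5, 534, 120 and 264 CPM in muscles, where muscle 1071 lay below the livers (log2 fold change -1.73 ± 0.63, adjusted p 0.0333 in edgeR's test). That call was lost without liver 1095 (log2 fold change -1.77), liver 1120 (-1.66) or liver 1121 (-1.74), without muscle 1095 (-0.95) and with limma-voom (-1.25).

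Of 26 genes tested for excitation-contraction coupling and calcium handling, of 27 listed, 25 were higher in muscle, with a median log2 fold change of -9.24, or -9.13 with the members at 0 reads in livers set at their lower limit. Ryr1, the calcium release channel, had 5.74, 5.08 and 5.70 CPM in livers and 4195, 3375, 1635 and 3569 CPM in muscles. Atp2a1, the fast calcium pump, had 32.4, 27.5 and 26.3 CPM in livers and 35250, 22260, 19990 and 23100 CPM in muscles (log2 fold change -9.80 ± 0.52). Cacng6, a subunit of the calcium channel, and Kcnj11, a potassium channel pore, had no read in any liver and were at least 236-fold and 160-fold higher in muscle, taking 3 reads per library as the limit of a count of 0. The member not called was Atp2a2, the pump of slow and non-muscle cells, with 182, 147 and 164 CPM in livers and 57.1, 814, 125 and 410 CPM in muscles. It was called higher in muscle without muscle 1071, with a log2 fold change of -1.51.

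The neuromuscular junction list was mixed, with 2 of 12 genes tested higher in liver and 9 higher in muscle. Chrna1, a subunit of the acetylcholine receptor, had at most 0.0709 CPM in livers and 13.3, 14.4, 14.9 and 12.7 CPM in muscles. Musk, the receptor kinase that gathers those receptors, had no read in livers and was at least 75.8-fold higher in muscle, or at least 48.9-fold without muscle 1121. Lrp4, the agrin receptor, had 47.6, 45.4 and 63.1 CPM in livers and 11.7, 15.7, 14.5 and 11.2 CPM in muscles (log2 fold change 1.96 ± 0.20), and Erbb3, a neuregulin receptor, had 146, 149 and 209 CPM in livers and between 5.14 and 11 CPM in muscles (log2 fold change 4.47 ± 0.28).

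Of 27 muscle energy genes, 26 were higher in muscle, with a median log2 fold change of -7.30. Ckm had 24.6, 26.2 and 20.2 CPM in livers and 32910, 16010, 20040 and 19670 CPM in muscles (log2 fold change -9.89 ± 0.55). Mb, myoglobin, which stores oxygen, had 4.68, 4.46 and 3.52 CPM in livers and 1734, 3697, 6506 and 2327 CPM in muscles. Ldha, lactate dehydrogenase A, differed less, at 902, 695 and 909 CPM in livers and 2898, 2382, 2107 and 2705 CPM in muscles (log2 fold change -1.61 ± 0.25). Gpd1, which passes electrons from glycolysis to mitochondria in muscle and makes the glycerol backbone of triglycerides in liver, was not called, at 466, 340 and 421 CPM in livers and 690, 489, 408 and 626 CPM in muscles, with 45.3% of its reads mapping to a single place. Gpd1 was called higher in muscle with upper quartile scaling (log2 fold change -0.69), without muscle 1120 (-0.64), without muscles 1071 and 1120 (-0.48) and in each of the other diets.

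Of 22 genes of the dystrophin complex and muscle membrane, 1 was higher in liver and 19 were higher in muscle. The member on the liver side was Sntb1, a syntrophin, at 47.1, 41.0 and 44.4 CPM in livers and between 1.30 and 5.96 CPM in muscles (log2 fold change 3.80 ± 0.43). Dmd, dystrophin, differed less, at 22.8, 28.2 and 29 CPM in livers and 57.4, 155, 75.2 and 167 CPM in muscles (log2 fold change -2.09 ± 0.39). All 26 muscle transcription factors and regulators listed were higher in muscle, with a median log2 fold change of -7.64, or -6.51 with the members at 0 reads in livers at their lower limit. Myod1, the myogenic factor, had at most 0.0686 CPM in livers and 15.3, 13.3, 17.0 and 6.52 CPM in muscles. Myog, its successor in differentiation, had no read in livers and was at least 15.1-fold higher in muscle. All 14 hindlimb positional genes tested, of 20 listed, were higher in muscle.

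Many of these genes passed the filter on low counts through the organ where they were high. The number tested with a mean under 1 CPM in the lower tissue was 64 of 211 over the liver lists and 82 of 170 over the muscle lists, each gene taken once, so the counts above describe the lists and are not a test of them. Of the tested members, 208 of 211 in liver lists were higher in liver and 162 of 170 in muscle lists were higher in muscle, beside 33.4% and 35.1% of all tested genes.

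**Figure D3:**
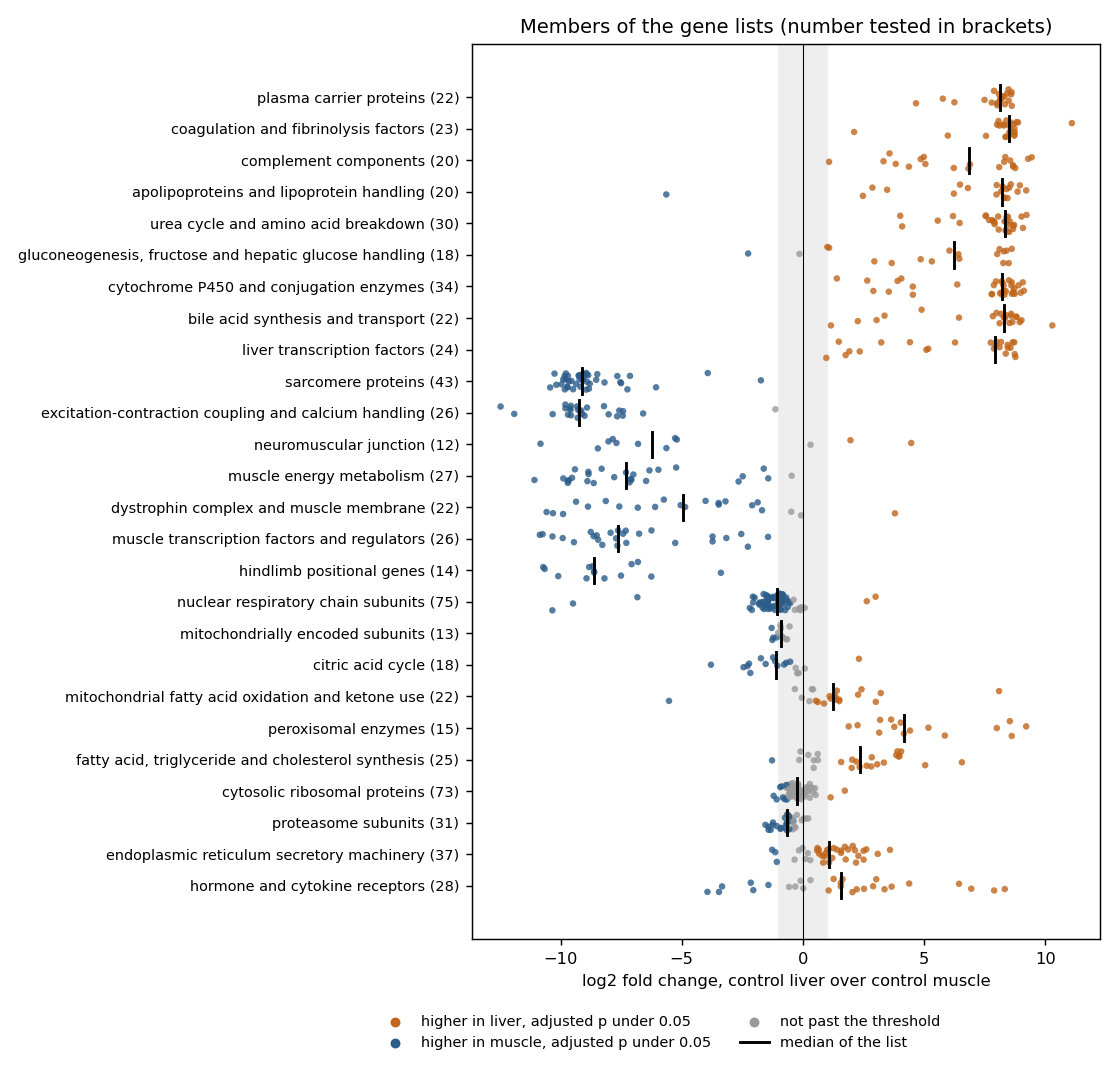
Log2 fold change (control liver over control muscle) of every tested member of 26 gene lists, 1 point a gene, with the number tested in brackets and the median of each list as a bar; the grey band marks changes under 2-fold. Liver lists gather near 8, sarcomere and calcium genes near -9, and the medians of the 10 lists shared by both organs lie between -1.10 (citric acid cycle) and 4.17 (peroxisomal enzymes).

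The 30 pairs of related function were chosen as genes known from textbooks to differ in use between liver and muscle. Their counts therefore describe the pairs and are not a test of a split. In each pair, each gene was measured as a percentage of the summed RPKM of both, which is the read count scaled to transcript length and library size. In 22 of the 30 pairs the liver gene was called higher in liver and the muscle gene higher in muscle, and in 27 pairs the liver gene held over 50% of the sum in every liver and under 50% in every muscle. Of all tested genes, 33.4% were called higher in liver and 35.1% higher in muscle. Slc2a2, the hepatic transporter, held 99.7% of its pair with Slc2a4, the insulin-responsive one, in all livers and 0.14 to 0.445% in muscles.

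Glycogen enzymes divided in the same way. Gys2 held 99.3 to 99.6% of the glycogen synthase pair in livers and 0.295 to 0.674% in muscles, and Pygl 95.3 to 96.1% of the phosphorylase pair in livers and 0.0715 to 0.315% in muscles. Phka2, a subunit of the kinase that activates phosphorylase, was less exclusive, at 79.8 to 83.1% in livers and 1.18 to 3.07% in muscles. Cpt1a, which admits fatty acids to the mitochondrion, held 99.2 to 99.5% of its pair with Cpt1b in livers and 3.53 to 6.88% in muscles. The low member was present in muscles at a few percent in the Cpt1a pair and at under 1% in the Gys2 and Pygl pairs.

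In some pairs the RPKM sum was split more evenly in livers. Pfkl held 51.5 to 59.0% of the phosphofructokinase pair in livers and 0.196 to 0.285% in muscles, and Adss held 52.5 to 56.9% of the adenylosuccinate synthetase pair in livers and 0.835 to 1.26% in muscles. Acaca, the acetyl-CoA carboxylase of fat synthesis, held 43.8 to 66.0% of its pair with Acacb in livers and 7.22 to 10.6% in muscles. Acacb, whose product blocks fatty acid entry into mitochondria, was called higher in muscle, at 80.9, 130 and 154 CPM in livers and 269, 331, 217 and 358 CPM in muscles. In 2 pairs both genes were called higher in muscle, Tpm3 with Tpm2 and Ckb with Ckm (the Ckb call was lost without liver 1120, with a log2 fold change of -1.31), and in the arginase pair Arg1 held at least 91.6% in every library of either organ.

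**Figure D4:**
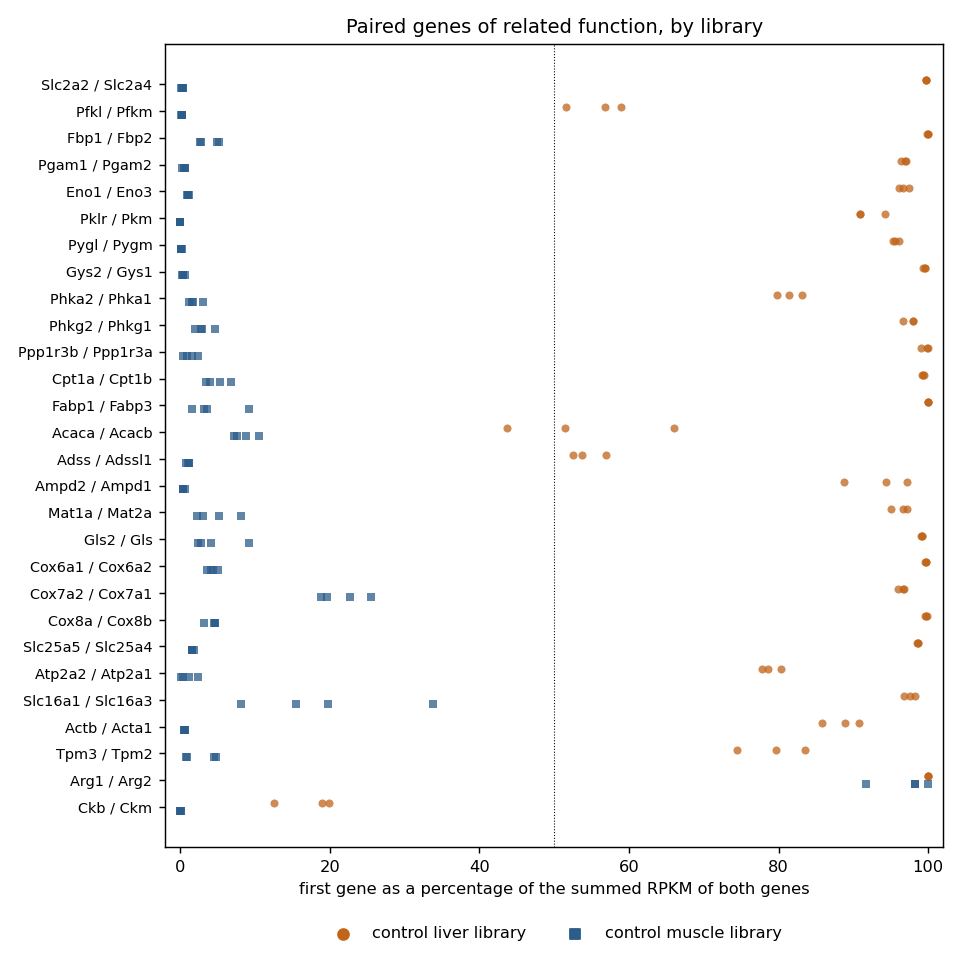
Share of the first-named gene in the summed RPKM of 28 of the 30 gene pairs, with 1 point a library (livers as circles, muscles as squares) and a dotted line at 50%. Most livers lie above 90% and most muscles below 10%, and the points of the Pfkl, Adss and Acaca pairs lie near the middle in livers.

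Of 75 nuclear subunits of the respiratory chain, 2 were higher in liver, 66 were higher in muscle and 7 were not called, with a median log2 fold change of -1.06. Counts of this list and of those that follow stand beside 33.4% of all tested genes called higher in liver and 35.1% in muscle. Atp5b, the catalytic subunit of ATP synthase, had 1328, 1338 and 1350 CPM in livers and 2480, 2705, 3337 and 2496 CPM in muscles (log2 fold change -1.04 ± 0.23). Muscle 1120 was the highest library in the summed list, at 35140 CPM beside 22230 to 23720 CPM in the other muscles. Without muscles 1071 and 1120, 64 subunits were higher in muscle and the median was -0.94.

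The subunits that stood out were the tissue forms of cytochrome c oxidase. Cox6a1 had 227, 242 and 239 CPM in livers and 32.1, 18.4, 45.0 and 23.0 CPM in muscles (log2 fold change 3.0 ± 0.27), and Cox6a2, its heart and muscle form, had 0.921, 1.37 and 0.833 CPM in livers and 850, 568, 1111 and 491 CPM in muscles (log2 fold change -9.49 ± 0.47). Cox8a held 99.6 to 99.8% of its pair with Cox8b in livers and 3.20 to 4.68% in muscles. Cox7a1, another muscle form, differed in the same direction (log2 fold change -6.83 ± 0.38), and its ubiquitous partner held 95.9 to 96.8% of the pair in livers and 18.9 to 25.5% in muscles.

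The 13 mitochondrially encoded subunits all had negative log2 fold changes, with a median of -0.90, but only 4 (30.77%) were called higher in muscle. mt-Co1, subunit 1 of cytochrome c oxidase, had 22770, 25740 and 21230 CPM in livers and 20170, 63200, 45860 and 47820 CPM in muscles (log2 fold change -0.93 ± 0.44, adjusted p 0.0831 in edgeR's test). Muscle 1071 lay below all livers and the other muscles above them. Without muscle 1071, or without muscles 1071 and 1120, all 13 were called higher in muscle. With the animal as a block 11 were, and with upper quartile scaling 9 were. Mouse 1071 has no liver library here, so muscle 1071 adds nothing to the contrast in the block fit. That fit is therefore not separate from leaving muscle 1071 out. Without liver 1095, liver 1120, liver 1121 or muscle 1095 the count was 1, 2, 2 and 2. In the libraries of the other diets 13, 12 and 13 of the 13 were called higher in muscle, for soy, fish and lard.

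Of 18 genes of the citric acid cycle, 1 was higher in liver, 13 were higher in muscle and 4 were not called. Cs, citrate synthase, had 130, 113 and 118 CPM in livers and 513, 743, 643 and 716 CPM in muscles (log2 fold change -2.45 ± 0.21). Idh3a, a subunit of the NAD-dependent isocitrate dehydrogenase, had 34.3, 35.8 and 34.2 CPM in livers and 405, 502, 519 and 496 CPM in muscles (log2 fold change -3.79 ± 0.20). The gene on the liver side was Suclg2, the GTP-forming succinyl-CoA ligase subunit, at 324, 337 and 324 CPM in livers and 50.2, 72.0, 70.4 and 71.2 CPM in muscles (log2 fold change 2.32 ± 0.18). Its ATP-forming counterpart Sucla2 had 129, 131 and 131 CPM in livers and 283, 410, 423 and 392 CPM in muscles (log2 fold change -1.53 ± 0.19).

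**Figure D5:**
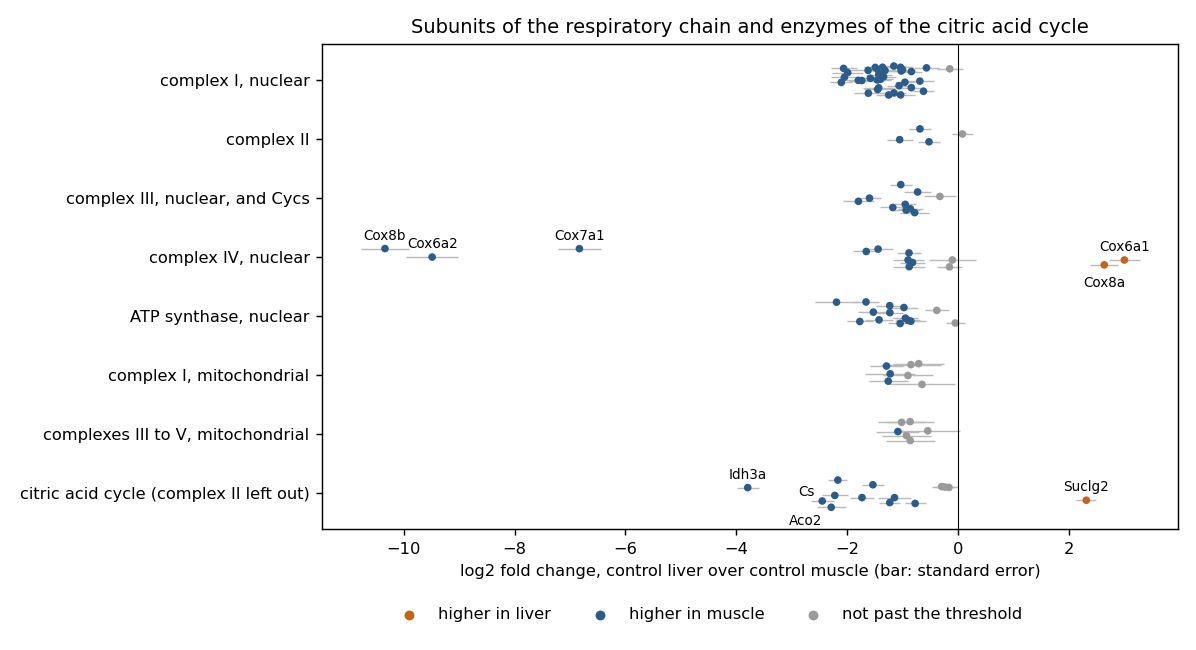
Log2 fold change (control liver over control muscle) with its standard error for respiratory chain subunits, grouped by complex and genome, and for the other citric acid cycle enzymes, 1 point a gene. Most points lie between 0 and -2, and Cox8b, Cox6a2 and Cox7a1 lie far on the muscle side and Cox6a1, Cox8a and Suclg2 on the liver side.

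Of 22 genes of mitochondrial fatty acid oxidation and ketone use, 16 were higher in liver and 1 in muscle, with a median log2 fold change of 1.23. Acaa2, the thiolase of the oxidation spiral, had 965, 1027 and 972 CPM in livers and 134, 170, 295 and 145 CPM in muscles (log2 fold change 2.42 ± 0.27). Oxct1, which lets a tissue use ketone bodies, had 3.76, 6.11 and 6.73 CPM in livers and 180, 310, 324 and 214 CPM in muscles (log2 fold change -5.52 ± 0.35).

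All 15 peroxisomal genes tested, of 16 listed, were higher in liver, with a median log2 fold change of 4.17. Uox, urate oxidase, had 2667, 2174 and 2088 CPM in livers and between 3.60 and 8.39 CPM in muscles (log2 fold change 8.62 ± 0.40). Of 25 genes of fatty acid, triglyceride and cholesterol synthesis, 17 were higher in liver, 1 was higher in muscle and 7 were not called. Scd1, the fatty acid desaturase, had 13840, 10160 and 18470 CPM in livers and 706, 595, 514 and 1571 CPM in muscles (log2 fold change 4.06 ± 0.46). Within liver, mouse 1095 was lowest in the cholesterol enzymes Sqle, at 8.43, 44.5 and 36.9 CPM, and Fdps, at 61.2, 220 and 165 CPM, as it was in Cyp7a1.

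Of 37 endoplasmic reticulum genes tested, of 38 listed, 28 were higher in liver, 3 were higher in muscle and 6 were not called, with a median log2 fold change of 1.07. P4hb, protein disulfide isomerase, had 1193, 1344 and 1117 CPM in livers and 246, 170, 181 and 191 CPM in muscles (log2 fold change 2.62 ± 0.23). Sar1b, a GTPase of vesicle budding, went the other way, at 160, 224 and 204 CPM in livers and 364, 424, 464 and 482 CPM in muscles (log2 fold change -1.14 ± 0.21). Of 31 proteasome subunits, none was higher in liver and 21 were higher in muscle, with a median log2 fold change of -0.64. In either direction 67.74% were called, near the 68.5% of all tested genes. Psmc5, an ATPase of the regulatory cap, had 58.5, 43.9 and 48.5 CPM in livers and 207, 102, 152 and 117 CPM in muscles (log2 fold change -1.55 ± 0.26).

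The 73 cytosolic ribosomal protein genes in the tables varied in their balance with the libraries used. With all libraries 2 were higher in liver and 11 in muscle, with a median log2 fold change of -0.26. In either direction 17.81% were called, below the 68.5% of all tested genes. Without muscles 1071 and 1120, 14 were higher in liver and 8 in muscle, with a median of 0.05, and with the animal as a block 4 were higher in liver and 9 in muscle. With upper quartile scaling 2 were higher in liver and 28 in muscle. Leaving out 1 library gave between 2 and 9 higher in liver and between 1 and 22 higher in muscle, with the lowest muscle count without liver 1095 and the highest without muscle 1121. The list summed to 12700, 14000 and 12920 CPM in livers and to 16620, 11880, 22570 and 12730 CPM in muscles. The high libraries were muscles 1071 and 1120, which were also highest in the erythroid and neutrophil markers. Their part in the difference was not tested. Rpl3l, the muscle paralog of a ribosomal protein, is not in that list and differed far more. It had 0.567, 0.481 and 0.385 CPM in livers and 707, 409, 619 and 416 CPM in muscles.

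Of 28 hormone and cytokine receptor genes, 17 were higher in liver, 6 were higher in muscle and 5 were not called. Gcgr, the glucagon receptor, had 294, 265 and 279 CPM in livers and between 0.416 and 1.89 CPM in muscles (log2 fold change 8.33 ± 0.47). Ghr, the growth hormone receptor, had 587, 592 and 534 CPM in livers and 134, 146, 107 and 161 CPM in muscles (log2 fold change 2.05 ± 0.21). Insr, the insulin receptor, had 197, 175 and 187 CPM in livers and 54.0, 101, 61.5 and 88.9 CPM in muscles (log2 fold change 1.27 ± 0.23). Igf1r, the receptor of its relative IGF1, was low in both, at 1.63, 0.824 and 1.15 CPM in livers and 1.95, 6.57, 3.61 and 7.56 CPM in muscles (log2 fold change -2.04 ± 0.48). The adiponectin receptors lay on opposite sides, with Adipor2 at 765, 502 and 500 CPM in livers and 106 to 148 CPM in muscles, and Adipor1 at 94.3, 101 and 96.9 CPM in livers and 232 to 288 CPM in muscles. Thra and Thrb, the thyroid hormone receptors, differed in sign, with log2 fold changes of -2.15 ± 0.20 and 1.06 ± 0.20.

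The genes with the largest differences, of at least 100 CPM in the higher tissue, included Slco1a1, an uptake carrier for organic anions, at 363, 328 and 248 CPM in livers and at most 0.416 CPM in muscles (log2 fold change 10.30 ± 0.45). Mup20, a major urinary protein, had 2920, 2008 and 2519 CPM in livers and between 1.48 and 4.62 CPM in muscles, and is the family member among them whose reads mostly mapped to a single place, at 95.6%. Igfn1, a protein of the Z disc, had no read in livers and 19.6, 68.7, 51.0 and 314 CPM in muscles, at least 557-fold higher, or at least 228-fold without muscle 1121. In fish libraries Igfn1 was not called (log2 fold change -1.89, adjusted p 0.179 in edgeR's test). Fabp3, which carries fatty acids in muscle, had at most 0.275 CPM in livers and 264, 582, 790 and 403 CPM in muscles (log2 fold change -11.08 ± 0.55).

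The most counted genes whose interval lay within 2-fold with all control libraries included Car3, Eef2, Hspa8 and Ubb. Car3, carbonic anhydrase 3, which hydrates carbon dioxide, had 1685, 2853 and 1911 CPM in livers and 1647, 2548, 2620 and 2495 CPM in muscles (log2 fold change -0.10 ± 0.29). In the other diets Car3 was called higher in muscle, at -1.79, -0.84 and -1.38 in soy, fish and lard libraries. Eef2, the elongation factor that moves the ribosome along, had 1562, 1625 and 1752 CPM in livers and 1796, 1261, 1362 and 1306 CPM in muscles (log2 fold change 0.19 ± 0.24). In lard libraries Eef2 was called higher in liver, at 0.36. Under 50% of the Hspa8 reads mapped to a single place. Ubb, which encodes ubiquitin, was called higher in muscle in 8 of the alternatives on the control libraries, with log2 fold changes from -0.68 to -0.43, and in each of the other diets.

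Other cell types of the 2 organs were read beside the parenchyma. Their marker counts stand beside the same 33.4% of all tested genes called higher in liver and 35.1% in muscle. All 5 Kupffer cell markers and all 6 markers of the liver sinusoidal endothelium were higher in liver, with Clec4f, a Kupffer cell lectin, at 100, 121 and 122 CPM in livers and at most 0.585 CPM in muscles. Of 8 general macrophage markers 7 were higher in liver. The general endothelial list leaned to muscle, with 1 of 7 markers, Kdr, higher in liver and 6 higher in muscle. All 7 adipocyte, 6 fibroblast, 4 smooth muscle and 6 Schwann cell markers were higher in muscle, with summed levels of 16.5 to 35.0, 225 to 300, 12.9 to 14.6 and 3.33 to 4.33 CPM in livers and 410 to 952, 728 to 1140, 126 to 354 and 51.2 to 214 CPM in muscles. Lep, the leptin gene of fat cells, had no read in livers and 51.8, 18.2, 5.59 and 80.9 CPM in muscles. The 3 satellite cell markers tested of 4 listed, of the stem cells of muscle, were higher in muscle, with Pax7 at no read in livers and 1.77 to 3.95 CPM in muscles. The 6 pancreatic markers summed to 7.95 to 14.0 CPM in livers and to 6.30 CPM in muscle 1095, above the 1.76 to 2.15 CPM of the other muscles. Of these 6, Cpa1, Prss2 and Ctrb1 had no read in any liver, and only 1 could be tested.

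The same contrast was fitted in each of the other diets on its own libraries. Of the control calls that were also tested there, 97.04% had the same sign in soy libraries (4 livers, 3 muscles), 99.01% in fish libraries (4 livers, 3 muscles) and 99.51% in lard libraries (4 livers, 4 muscles). The share called in those fits was 66.2, 79.2 and 82.0% of the genes tested, and 4, 8 and 4 genes were called in the opposite direction. Among the lists, the nuclear respiratory chain differed in count, with 16 of 75 subunits higher in muscle in soy libraries and a median log2 fold change of -0.30, beside 68 and 67 in fish and lard libraries. The proteasome list had 5 members higher in muscle in soy libraries and 23 in each of fish and lard libraries. The difference between diets was not tested.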

How the data were processed

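Gene tables of 29 libraries from control, soy, fish and lard mice were used. Per the labels, total RNA was extracted with Trizol and sequenced from TruSeq libraries, and FastQC and the build GRCm38 stand in the submitters' processing notes. Neither aligner nor counter, nor gene annotation, nor strandedness is named: not given in the sources used here. The authors deposited, per the file headers, counts of total and unique exon reads per Ensembl gene, RPKM (reads scaled to exon length and library size), and the exon length, a value of another kind. Of 38124 genes, 36345 IDs matched a symbol of GENCODE M21.

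From the counts, livers and muscles were joined by gene ID, genes were filtered with filterByExpr (minimum count 10), scaled by TMM and tested with edgeR 4.0.16 under R 4.3.3 (quasi-likelihood F test, 5 residual degrees of freedom, Benjamini-Hochberg adjustment, threshold 0.05). Positive log2 fold changes are higher in liver. The scripts were tested on simulated data. Alternatives used DESeq2 1.42.0, limma 3.58.1, other scalings and filters, unique reads, left-out libraries and the other diets. The biological coefficient of variation was 0.256, and depth of 14110643 to 15600900 exon reads puts 1 read at about the lowest CPM given. Bounds against 0 reads take 3 counts per library and cover counting error only.

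Members and lists were chosen with earlier results of these data known. Named genes are the 10 of highest RPKM in each tissue, the 10 largest changes in each direction with at least 100 CPM and no overlap, the 3 most abundant called members of each list with every member called against its list, all pair members, and the 5 most abundant genes within 2-fold; others were chosen after their values were seen. Liver and muscle of mice 1095, 1120 and 1121 come from the same animals. Their deviations from the group means correlated at 0.0899, 0.184 and 0.0193 across 7795 genes, and the fit with the animal as a block is given where it moved a count by over 1.5 times. Some named genes are not reported here.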

Additional observations from a re-analysis of the deposited data

Results flagged for a closer look

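Among the 4 control muscles, 1 library stood apart from the other 3 by Dixon's test at its 95% critical value in 18 of 178 values examined (10.11%). Chance flags about 1 in 20 groups of independent values. The values here share libraries, and some genes were chosen after their values were seen, so the share is not read against that rate. No gene named here had the opposite direction without overlap in another diet.

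The muscle of mouse 1071 was highest for the sarcomere list at 283100 CPM and for the bile acid list at 294.5 CPM. It was lowest for Car3 at 1647 CPM and for Suclg2 at 50.2 CPM. It was highest for the liver genes Cyp2e1 at 58.0 CPM, Gcgr at 1.89 CPM and Serpind1 at 0.520 CPM, and it also had the highest median trace of hepatocyte markers.

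The muscle of mouse 1120 was highest for the nuclear respiratory chain at 35140 CPM, for Cox7a1 at 438.8 CPM and for Cox8a at 41.2 CPM. It was lowest for Hoxc10 at 0.778 CPM. Its Kupffer cell markers summed to 10.2 CPM, its T and NK cell markers to 4.60 CPM and its epidermis markers to 3.61 CPM, each above the other muscles.

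The muscle of mouse 1095 was highest for pancreatic markers at 6.30 CPM. The muscle of mouse 1121 was highest for Igfn1 at 314.3 CPM and for Cpt1a at 25.8 CPM, and had 0 CPM of Foxa2, where the other muscles had about 1 read each. What set these libraries apart was not tested.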

How the results depend on the processing

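Leaving out 1 library at a time gave 8260 to 9088 called genes, 6699 to 6925 at 2-fold, 2493 to 3348 within 2-fold, 207 to 208 liver list members, 156 to 161 muscle list members and 22 to 23 split pairs. A test against a 2-fold change (edgeR's glmTreat) called 5436 genes. With the animal as a replicate block 4373 genes were higher in liver and 4509 in muscle, and 94.49% of the calls were kept. Upper quartile scaling moved the median log2 fold change of all genes by -0.24 and gave 3847 calls higher in liver and 5483 in muscle, 41.23% in liver instead of 48.82%; testing without a filter moved that median by -0.14. Of 126 genes named in the report, 21 changed call or sign in 1 or more alternatives on the control libraries. Signs turned in 3 uncalled genes and in Ckb. Leaving out 1 library, the log2 fold change ran from -0.395 to 0.097 for Car3 (positive without liver 1095). With upper quartile scaling Eef2 was -0.047. In fish libraries Hspa8 was -0.082, and Ckb, called higher in control muscle, was 0.121. The cause was not tested. At these depths a gene at 0 reads sets only a limit on its fold change.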

Other observations

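Gene families grouped by symbol, a grouping chosen after the data were seen, are given beside the 33.4% of all tested genes called higher in liver and the 35.1% called higher in muscle. Of 257 tested solute carriers, 136 were higher in liver and 65 in muscle, and of 68 cytochromes P450, 63 were higher in liver and 2 in muscle. All 20 Ugt glucuronosyltransferases tested were higher in liver. Of 37 potassium channel genes, 7 were higher in liver and 24 in muscle, and of 34 collagens, 5 were higher in liver and 27 in muscle. Of 77 mitochondrial ribosomal proteins, 2 were higher in liver and 38 in muscle, and 37 were not called, so that 51.95% were called in either direction, below the 68.5% of all tested genes. Of 44 Usp and 31 Klhl genes, 54.55 and 67.74% were called.

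Of 18 tested Hox genes, 1, Hoxb4, was higher in liver and 17 in muscle. In the control muscles, Hoxa11, a limb patterning gene with no read in livers, had 5.27, 0.335, 4.95 and 0.208 CPM. Hoxa13 had 4.23, 0.268, 3.89 and 0.139 CPM. Both were high in muscles 1071 and 1120, the same libraries that carried bone and neutrophil markers. In the 10 muscles of the other diets Hoxa11 ran from 0.221 to 4.51 CPM with a median of 2.835, and Hoxa13 from 0.295 to 3.49 CPM.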
